A study of Mus musculus with 4 samples.

Results

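Transforming growth factor beta (TGF-beta) signalling was followed through 10 genes in single-cell RNA libraries of mouse liver: the ligands Tgfb1, Tgfb2 and Tgfb3, the receptors Tgfbr1, Tgfbr2 and Tgfbr3, the signal transducer Smad3, and the feedback genes Smad7, Skil and Pmepa1. The genes were chosen by symbol, and all 10 were found among the 55450 genes listed in the deposited tables. Of these, 31176 had at least 1 unique molecular identifier (UMI, a tag that marks 1 captured RNA molecule) in any deposited barcode, before cells were filtered. Each library came from 1 wild-type C57B6 mouse aged 18 to 20 weeks. The control mouse was given normal saline, and the TAA mouse thioacetamide, a hepatotoxin that causes liver fibrosis, by intraperitoneal injection over 12 weeks. Another 2 mice had the same thioacetamide course plus celecoxib, an inhibitor of cyclooxygenase-2, by gavage from week 5, at 7.5 mg/kg (TAA+C7.5) or 30 mg/kg (TAA+C30). After enzymatic dissociation and lysis of red cells, a brief low-speed spin took out most hepatocytes, which left mainly nonparenchymal cells. RNA was captured at its 3′ end in droplets. With 1 mouse per group no test between conditions was possible: each difference below is between 2 libraries, and all intervals are 95% intervals that cover counting error only.

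TGF-beta ligands are secreted in a latent form and act, once released, on a complex of the type II receptor TGFBR2 and the type I receptor kinase TGFBR1. The kinase phosphorylates SMAD2 and SMAD3, which enter the nucleus with SMAD4 and induce target genes, among them Smad7, Skil and Pmepa1, whose products restrain the same pathway. In liver, macrophages are a major source of TGFB1 and stellate cells are its best known responders in fibrosis.

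Filters retained 5666 control cells, 6460 TAA cells, 5911 TAA+C7.5 cells and 6062 TAA+C30 cells, with median depths of 3357, 4571, 1967 and 3100.5 UMIs. Clusters were named from marker genes, giving 15 named classes. Each class name is short for cells that resemble that type by markers, and NK/ILC stands for natural killer or other innate lymphoid cells. The makeup differed strongly between libraries: endothelial cells numbered 2874 in control, 177 in TAA, 57 in TAA+C7.5 and 13 in TAA+C30, while monocytes or macrophages other than Kupffer cells numbered 197, 1153, 507 and 1412. Despite the spin, hepatocytes were still present, at 120, 58, 29 and 21 cells. Stellate cells formed no named class. A cluster led by Dcn, Ednrb and Cnmd, with Lrat and Colec11 among its leading genes, held 10, 74, 7 and 2 cells. Its marker score (mean log2 fold over other cells) was 2.53 for endothelial markers and 1.43 for stellate or fibroblast ones. It stayed unnamed because its leading genes held more markers of another class than endothelial ones. A cluster led by Ednrb, Rab3b and Fabp4 held 6, 60, 5 and 3 cells. It also scored highest for endothelial markers, at 2.04, and stayed unnamed for low depth. Endothelial counts and shares of UMIs here are of the named class and leave out such clusters. A cluster led by Igfbp5, Dcn and Ccl21a held 3, 2, 6 and 10 cells and also stayed unnamed. It scored 4.51 for mesothelial markers and 3.6 for stellate or fibroblast ones. Across libraries, 62 cell barcodes occurred in more than 1 library, carried by 124 of 24099 cells. Where 4 values are given without labels, their order is control, TAA, TAA+C7.5, TAA+C30. Levels are UMIs per 1000000 UMIs of a class in a library (CPM). A pair of gene and class was called higher or lower when the ratio of CPM + 10 between 2 libraries reached 1.5-fold, with at least 10 UMIs in the 2 libraries together and at least 50 cells of the class in each. Ratios in the text are of plain CPM, and log2 ratios are of CPM + 10. Values with matched cluster weights compare only clusters with at least 20 cells in both libraries, each given the same weight in both.

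The 250 bases before the start sites of Tgfb1 and Tgfb2 are shown because these ligands were distributed differently over cell classes. Tgfb1 lies at chr7:25687002-25705077 (plus strand) and Tgfb2 at chr1:186622792-186705989 (minus strand) in GRCm38. The sequences are from RefSeq (GRCm38.p6), in lower case with matches to a TATA box (TATAAA) or a GC box (GGGCGG), on either strand, in capitals. The windows are chr7:25686752-25687001 on the plus strand and chr1:186705990-186706239 on the minus strand.
Tgfb1: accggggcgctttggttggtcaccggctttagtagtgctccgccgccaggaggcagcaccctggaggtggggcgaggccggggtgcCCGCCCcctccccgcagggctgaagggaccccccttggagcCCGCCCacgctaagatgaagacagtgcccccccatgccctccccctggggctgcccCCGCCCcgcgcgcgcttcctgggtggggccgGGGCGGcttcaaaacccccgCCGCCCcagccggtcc
Tgfb2: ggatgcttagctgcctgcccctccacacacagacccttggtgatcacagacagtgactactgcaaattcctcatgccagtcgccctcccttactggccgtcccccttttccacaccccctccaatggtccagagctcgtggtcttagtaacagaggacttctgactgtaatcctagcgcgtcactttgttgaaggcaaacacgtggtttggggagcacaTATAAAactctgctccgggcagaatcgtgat
The Tgfb1 window held 5 GC box matches and 0 TATA box matches, and its GC content was 75.2%, above that of 96.1% of mouse promoter windows. The Tgfb2 window held 1 TATA box match, 31 bases before the start, 0 GC box matches, and a GC content of 53.6%. Among 32851 mouse promoter windows of this length, 12.4% held the TATA box letters and 32.7% the GC box letters. These matches describe the letters only. Of the 10 genes, 5 had a promoter entry (Tgfb1, Tgfb2, Tgfbr1, Tgfbr2 and Smad3).

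Tgfb1 RNA, which encodes the ligand most often tied to liver fibrosis, was spread over most immune and endothelial classes. It was highest in control in monocytes or macrophages, at 541 CPM (671 UMIs), and in TAA in NK/ILC, at 695 CPM (684 UMIs). In NK/ILC the level was 189 CPM in control, 695 in TAA, 483 in TAA+C7.5 and 512 in TAA+C30. The 3 thioacetamide libraries thus stood well above control, with TAA the highest. The TAA level was 3.68-fold the control level (interval 2.93 to 4.66), and the ratios of TAA+C7.5 and TAA+C30 to control were 2.56 and 2.71. Both NK/ILC clusters showed it: Tgfb1 was 161 CPM in control and 681 in TAA in the cluster led by Klra4, Gzma and Klra8, and 249 and 707 in the cluster led by Xcl1, Gzmc and Klrb1b. When each cell was thinned to 1000 UMIs, Tgfb1 was detected in 15.3% of control NK/ILC and in 44.0%, 36.7% and 37.8% of those in TAA, TAA+C7.5 and TAA+C30. Without thinning the shares were 43.0%, 83.5%, 52.8% and 61.3%, at median depths of 3978, 5129.5, 1853 and 2989 UMIs. In hepatocytes, a class with little Tgfb1, the thinned shares were 2.63% in control and 1.96% in TAA, the unthinned ones 8.33% and 6.90%, and the median depths 1264.5 and 5042.5 UMIs.

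Among monocytes or macrophages the Tgfb1 level was 541 CPM in control, 373 in TAA, 459 in TAA+C7.5 and 391 in TAA+C30. None of these differences reached 1.5-fold. The class nevertheless held a larger part of all Tgfb1 UMIs in the thioacetamide libraries, 9.58% in control against 39.8% in TAA, 26.4% in TAA+C7.5 and 48.5% in TAA+C30. Endothelial cells went the other way: they held 62.2% of Tgfb1 UMIs in control, 7.61% in TAA and 1.69% in TAA+C7.5, while their level was 344, 373 and 288 CPM. Within endothelial cells, TAA was 1.08-fold control (interval 1.01 to 1.16). The libraries held different endothelial clusters. Control cells lay mainly in the clusters led by Cyp26b1, Ehd3 and Kdr and by Fam167b, Ccdc152 and Selenop (1651 and 1002 of 2874 cells, against 16 and 13 of 177 in TAA). TAA cells lay mainly in the clusters led by Ednrb, Esm1 and Iigp1 and by Ednrb, Selp and Rab3b (92 and 35 cells, against 0 in control), and TAA+C7.5 had 28 of its 57 cells in the first control cluster and 4 and 11 in the 2 TAA clusters. No endothelial cluster held 20 cells in both control and TAA, or in both TAA and TAA+C7.5, so no endothelial value here or below has matched cluster weights.

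B cells read 270, 330, 378 and 312 CPM and T cells 144, 168, 176 and 189 CPM in the 4 libraries, with no call. Kupffer cells, the resident liver macrophages, read 186 CPM in control and 275 in TAA, a ratio of 1.48 (interval 1.22 to 1.80). Tgfb1 was called in few other places. In neutrophils the level was 112 CPM in control, 107 in TAA, 82.0 in TAA+C7.5 and 48.1 in TAA+C30, and TAA+C30 was 2.22-fold below TAA (interval 1.82 to 2.71). In cholangiocytes, the epithelial cells of bile ducts, it was 3.62 CPM from 4 UMIs in control and 15.3 CPM from 83 UMIs in TAA, a ratio of 4.22 (interval 1.59 to 15.8). In hepatocytes it was 49.5 CPM from 14 UMIs in control and 13.5 CPM from 9 UMIs in TAA, 3.67-fold lower (interval 1.48 to 9.61). Levels in these 2 epithelial classes were below 10% of the highest class of the same library, and the part of free RNA from other cells in them was not tested.

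Tgfb2 RNA, in contrast, was concentrated in cholangiocytes. The cholangiocyte level was 109 CPM (121 UMIs) in control, 121 CPM (657 UMIs) in TAA, 60.2 CPM (83 UMIs) in TAA+C7.5 and 81.5 CPM (60 UMIs) in TAA+C30. These cells held 59.6% of Tgfb2 UMIs in control, 96.1% in TAA, 78.3% in TAA+C7.5 and 75.9% in TAA+C30. The interval of the TAA to control ratio included 1 (ratio 1.10, interval 0.908 to 1.35), and both celecoxib libraries were lower than TAA, 2.01-fold in TAA+C7.5 (interval 1.59 to 2.55) and 1.48-fold in TAA+C30 (interval 1.14 to 1.96). A cluster led by Dmbt1, Chil4 and Spink4, with 18 cells in TAA+C7.5 and 14 in TAA+C30 and none in the other libraries, had 0 Tgfb2 UMIs. In the main cholangiocyte cluster, led by Clu, Spp1 and Cp, Tgfb2 was 66.8 CPM in TAA+C7.5 and 92.9 in TAA+C30, with 1.81-fold and 1.30-fold lower levels than TAA. The interval of the TAA+C30 ratio there, 0.580 to 1.00, reached 1. Stellate or fibroblast markers summed to 112, 798, 481 and 499 CPM in cholangiocytes of the 4 libraries, with 7, 2, 7 and 8 of 12 markers at 0, and their part in these differences was not tested.

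Tgfb2 was close to absent in blood-borne classes. B cells, NK/ILC, neutrophils, plasmacytoid dendritic cells, type 2 conventional dendritic cells and myeloid progenitors had 0 Tgfb2 UMIs in all 4 libraries. A count of 0 allows up to 3 counts, which is 0.602 to 1.96 CPM in B cells, 0.963 to 4.24 CPM in neutrophils and 3.03 to 6.59 CPM in NK/ILC, depending on the library. Monocytes or macrophages had 1, 5, 1 and 0 UMIs. Named endothelial cells held 15.8% of the control UMIs, from 32 UMIs at 2.53 CPM. The other source in control was the unnamed cells, with 47 UMIs (186 CPM), 41 of them in 15 cells of a cluster led by Rspo3, Vwf and Wnt9b, at 349 CPM. That cluster scored highest for endothelial markers, at 1.70 against 0.633 for the next class. It stayed unnamed because it held under 20 cells, so the endothelial share depends on the naming rule.

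Tgfb3 was the least captured ligand, with 750 UMIs in all libraries together. Among compared classes its highest level was again in cholangiocytes, at 19.9, 25.4, 26.8 and 17.7 CPM in the 4 libraries, with no difference past 1.5-fold. In monocytes or macrophages it was 6.45 CPM (8 UMIs) in control, 18.2 CPM (239 UMIs) in TAA, 7.95 CPM (19 UMIs) in TAA+C7.5 and 6.17 CPM (54 UMIs) in TAA+C30. TAA alone stood high, 2.82-fold above control (interval 1.41 to 6.60), while TAA+C7.5 was 2.29-fold and TAA+C30 2.95-fold below TAA. The Tgfb3 UMIs lay mainly in the cluster led by Ms4a7, C1qb and Gpnmb, which held 30, 673, 151 and 358 cells in the 4 libraries. Within that cluster Tgfb3 was 39.3 CPM in control, 25.8 in TAA and 20.2 in TAA+C30. With matched cluster weights the log2 ratio of TAA to control turned from 0.78 to -0.31, and those to TAA were -0.26 in both celecoxib libraries, under the 1.5-fold limit. In type 1 conventional dendritic cells Tgfb3 was called higher in TAA+C30 than in TAA on 11 against 6 UMIs, a ratio of 2.63 whose interval included 1.

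**Figure D1:**
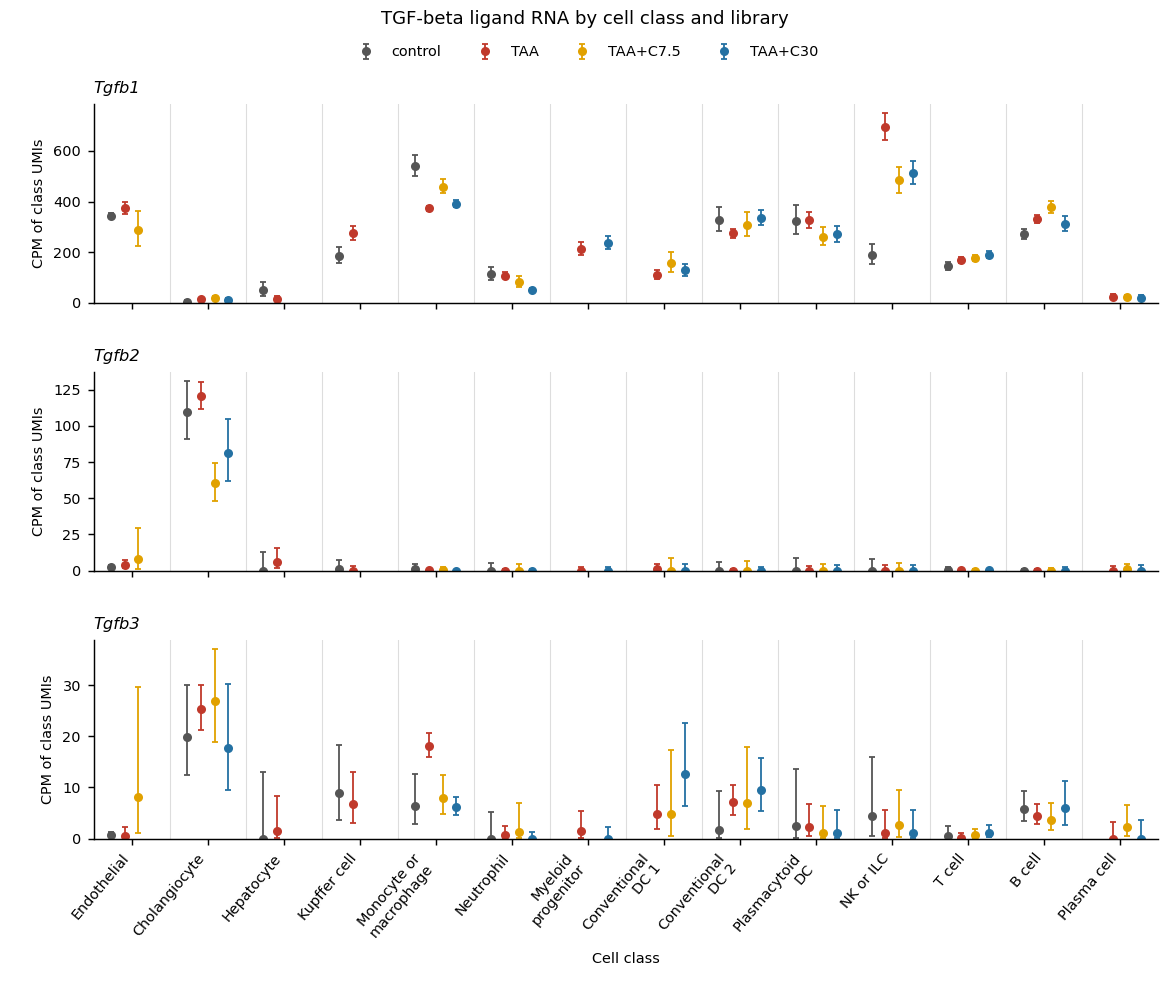
Level of Tgfb1, Tgfb2 and Tgfb3 (vertical axis, CPM of class UMIs; each gene has its own linear scale) in each cell class (horizontal axis). Points are single libraries and bars are exact Poisson 95% intervals; a class is drawn where at least 50 cells were in both libraries of a comparison. Tgfb1 in NK/ILC is 189 CPM in control and 695 in TAA, and Tgfb2 stands above 50 CPM in cholangiocytes in all 4 libraries and near 0 elsewhere.

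The receptors divided the classes differently. Tgfbr1 encodes the type I receptor kinase, and its level was highest in monocytes or macrophages and in plasmacytoid dendritic cells. The latter read 193, 199, 166 and 161 CPM, with no call. In monocytes or macrophages it was 155 CPM in control, 238 in TAA, 164 in TAA+C7.5 and 149 in TAA+C30. TAA was the highest of the 4 and the celecoxib libraries were near control. The ratio of TAA to control was 1.54 (interval 1.33 to 1.79), and TAA+C30 was 1.60-fold below TAA (interval 1.5 to 1.71). Clusters differed: Tgfbr1 was 344 CPM in control and 300 in TAA in the cluster led by Ms4a7, C1qb and Gpnmb, 40.4 and 89.1 in the one led by F13a1, Vcan and Fn1, and 221 and 192 in the one led by Ace, Cd300e and Adgre4. With matched cluster weights the log2 ratios were -0.082 for TAA against control and 0.017 for TAA+C30 against TAA.

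Tgfbr1 was called higher in TAA than in control in 5 of 11 classes and lower in 0, where 7.88% of 122499 pairs of gene and class were higher over all genes and 9.64% lower. Beside monocytes or macrophages these were Kupffer cells (68.8 to 155 CPM, ratio 2.26, interval 1.66 to 3.1), cholangiocytes (19.9 to 38.4 CPM, ratio 1.93), neutrophils (56.5 to 105 CPM, ratio 1.85) and type 2 conventional dendritic cells (28.4 to 52.0 CPM, ratio 1.83). In neutrophils the 4 libraries read 56.5, 105, 53.0 and 34.7 CPM, so TAA stood apart. TAA+C7.5 was 1.98-fold and TAA+C30 3.02-fold below it (intervals 1.43 to 2.80 and 2.42 to 3.80). With matched cluster weights the neutrophil log2 ratios went from 0.79 to 0.25 for TAA against control, from -0.87 to -0.16 for TAA+C7.5 against TAA and from -1.36 to -0.35 for TAA+C30 against TAA, all under the limit. In type 2 conventional dendritic cells the log2 ratio of TAA to control went from 0.69 to 0.39. Against TAA, Tgfbr1 in TAA+C30 was also lower in NK/ILC (20.2 against 47.7 CPM), myeloid progenitors (25.3 against 51.4 CPM) and plasma cells (23.3 against 46.5 CPM). Plasma cells in TAA+C7.5 were at 24.0 CPM.

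Tgfbr2, the ligand-binding type II receptor, had its highest level in endothelial cells, at 302 CPM in control, 270 in TAA and 304 in TAA+C7.5. These 3 libraries, whose endothelial cells lay in different clusters, were within 1.5-fold of each other, and endothelial cells supplied 73.2%, 14.6% and 4.28% of the Tgfbr2 UMIs. B cells followed with 183, 126, 147 and 141 CPM, and T cells with 152, 139, 154 and 120 CPM. Only plasmacytoid dendritic cells were called between TAA and control (115 against 70.7 CPM, ratio 1.63, interval 1.09 to 2.52), and TAA+C7.5 there was at 71.7 CPM. Neutrophils read 105, 66.6, 58.0 and 35.3 CPM. Their log2 ratio of TAA to control was -0.58, just under the 1.5-fold limit, and -0.50 with matched cluster weights. TAA+C30 was 1.89-fold below TAA in neutrophils (interval 1.49 to 2.40). Plasma cells were at 18.8 CPM in TAA and 5.83 in TAA+C30.

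Tgfbr3 encodes betaglycan, a co-receptor that presents ligand to TGFBR2, and among compared classes its level was highest in endothelial cells. Some small unnamed clusters, given under other observations, read higher than the endothelial cells of their library. Its endothelial level was 268 CPM in control, 262 in TAA and 271 in TAA+C7.5, with ratios of 0.977 for TAA against control (interval 0.898 to 1.06) and 1.04 for TAA+C7.5 against TAA (interval 0.792 to 1.34), again between libraries with different endothelial clusters. Named endothelial cells held 95.4%, 63.3% and 32.2% of all Tgfbr3 UMIs in these libraries. These shares depend on the naming rule. They leave out the unnamed clusters led by Dcn, Ednrb and Cnmd and by Ednrb, Rab3b and Fabp4, with 74 and 60 TAA cells. Of the immune classes, T cells read 17.7, 11.0, 13 and 15.4 CPM. Monocytes or macrophages read 23.4 CPM (29 UMIs) in control, 4.87 (64 UMIs) in TAA, 12.1 (29 UMIs) in TAA+C7.5 and 2.63 (23 UMIs) in TAA+C30. TAA was 4.8-fold below control (interval 2.99 to 7.56). Of these UMIs 28, 51, 28 and 23 were in the cluster led by Ace, Cd300e and Adgre4, where Tgfbr3 was 63.2 CPM in control, 52.0 in TAA, 80.9 in TAA+C7.5 and 58.9 in TAA+C30. That cluster made up 92 of 197 control cells of the class but 144 of 1153 TAA cells. Kupffer cells had 13 Tgfbr3 UMIs in control and 0 in TAA, a log2 ratio of -1.41. With TAA set at a floor of 3 counts it would be 7.26-fold lower. That value leaves out counting error in the 13 control UMIs.

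Endothelial RNA was present at low level in other classes, and its part in the Tgfbr3 values was not tested. In control Kupffer cells Tgfbr3 was at 6.19% of the endothelial level and the summed endothelial markers at 10.6%. In control monocytes or macrophages the 2 shares were 8.74% and 2.35%, and in control T cells 6.60% and 1.72%. In TAA they were 1.86% and 1.62% in monocytes or macrophages, 4.19% and 0.477% in T cells, and 0 and 3.48% in Kupffer cells. Tgfbr3 in T cells and in control monocytes or macrophages was a larger share of the endothelial level than the markers were, and in Kupffer cells a smaller one.

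Smad3, the receptor-activated transcription factor of the pathway, was highest in NK/ILC. The level there was 116 CPM (53 UMIs) in control, 48.7 CPM (48 UMIs) in TAA, 85.6 CPM (65 UMIs) in TAA+C7.5 and 54.5 CPM (54 UMIs) in TAA+C30. Control and TAA+C7.5 were the upper pair and TAA and TAA+C30 the lower pair. TAA was 2.39-fold below control (interval 1.59 to 3.61), TAA+C7.5 was 1.76-fold above TAA (interval 1.19 to 2.61), and TAA+C30 was 2.14-fold below control. Smad3 was lower in TAA in both NK/ILC clusters, at 29.3 against 111 CPM and 69.8 against 119 CPM. Monocytes or macrophages were 1.97-fold lower in TAA (15.6 against 30.6 CPM, interval 1.35 to 2.79), and the log2 ratio went from -0.67 to -0.20 with matched cluster weights. Across the 11 classes Smad3 was called higher in 0 and lower in 3, the third being hepatocytes with an interval that included 1. T cells read 41.4, 32.7, 30.8 and 32.7 CPM with no call. In type 2 conventional dendritic cells TAA+C7.5 was called higher than TAA on 6 against 10 UMIs (ratio 3.73, interval 1.11 to 11.3).

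**Figure D2:**
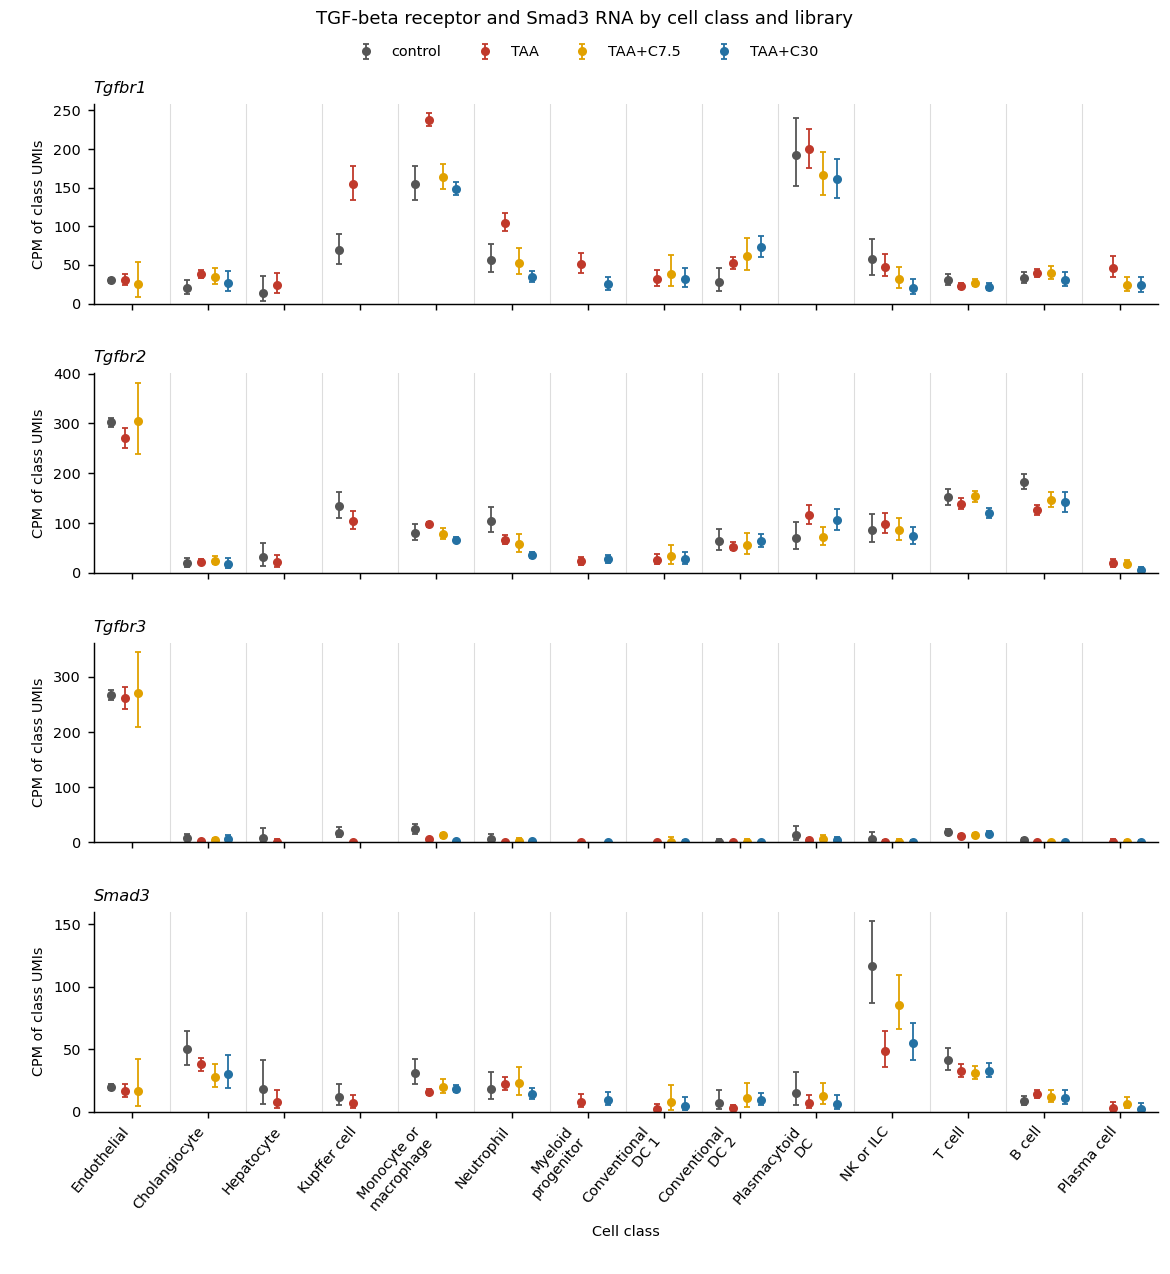
Level of Tgfbr1, Tgfbr2, Tgfbr3 and Smad3 (vertical axis, CPM of class UMIs; linear, each gene on its own scale) in each cell class (horizontal axis), with points for single libraries and exact Poisson 95% intervals. Tgfbr3 stands at 262 to 271 CPM in endothelial cells and below 25 CPM in the other classes drawn, and Tgfbr1 in monocytes or macrophages is 238 CPM in TAA against 155 in control.

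The feedback genes carried most of the differences between TAA and control. Of the 33 pairs of feedback gene and class, 31 had enough UMIs to be compared; 16 were higher in TAA and 1 was lower, with a median log2 ratio of 0.59. Over all 10 genes, 88 of 110 pairs were compared, 25 higher and 7 lower, with a median log2 ratio of 0.15. Against the background of 7.88% higher and 9.64% lower over all genes, whose median was -0.04, these are 28.4% and 7.95%. Among pairs that reached 50 CPM in the higher library, a limit chosen after the values were seen, 15 of 27 feedback pairs (55.6%) were higher against 10.7% of all pairs, and 21 of 54 pairs of all 10 genes (38.9%). Ligands gave 3 higher and 1 lower of 18 compared pairs, and receptors 6 higher and 2 lower of 28. Since pairs without enough UMIs drop out, these counts describe the compared pairs only.

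Pmepa1, at chr2:173224458-173276533 (minus strand), encodes a membrane protein that sequesters SMADs from the receptor. It had the largest ratios. In NK/ILC the level was 13.2 CPM (6 UMIs) in control, 185 CPM (182 UMIs) in TAA, 97.5 CPM (74 UMIs) in TAA+C7.5 and 117 CPM (116 UMIs) in TAA+C30. The TAA library was highest, both celecoxib libraries lay between, and control was lowest. The ratio of TAA to control was 14.0 (interval 6.32 to 38.7). Monocytes or macrophages followed the same order at 8.87 CPM (11 UMIs), 116 CPM (1529 UMIs), 55.6 CPM (133 UMIs) and 63.4 CPM (555 UMIs), with a ratio of TAA to control of 13.1 (interval 7.31 to 26.3). In type 2 conventional dendritic cells it was 16.7 CPM (10 UMIs), 160 CPM (565 UMIs), 107 CPM (61 UMIs) and 83.3 CPM (131 UMIs), with a ratio of 9.56 (interval 5.16 to 20.0). T cells, with more control UMIs, read 42.7 CPM (99 UMIs), 153 CPM (811 UMIs), 123 CPM (608 UMIs) and 118 CPM (504 UMIs). Their ratio of TAA to control was 3.59 (interval 2.91 to 4.47).

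In the other classes the Pmepa1 difference was smaller or not seen. B cells read 15.8, 42.2, 27.1 and 25.5 CPM, a ratio of 2.67 for TAA against control (interval 1.94 to 3.76). Plasmacytoid dendritic cells had the highest Pmepa1 level of any class in control, 193 CPM, against 284 in TAA, 177 in TAA+C7.5 and 179 in TAA+C30, and TAA was not past 1.5-fold of control. Endothelial cells read 49.1, 62.0 and 37.0 CPM in control, TAA and TAA+C7.5. Kupffer cells were level at 11.5 and 10.6 CPM in control and TAA. Neutrophils had 0, 6, 0 and 3 UMIs in the 4 libraries. In all, Pmepa1 was called higher in TAA in 6 of 9 compared classes and lower in 0. Thinned to 1000 UMIs, the share of NK/ILC with a Pmepa1 UMI was 0.901%, 13.7%, 6.87% and 10.2% in the 4 libraries, and 4.39%, 44.0%, 13.9% and 20.1% without thinning. In neutrophils, where Pmepa1 RNA was near the floor, the thinned shares were 0, 0.183%, 0 and 0, the unthinned ones 0, 0.523%, 0 and 0.268%, at median depths of 2688, 2342, 1204 and 1846 UMIs.

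Cluster by cluster, Pmepa1 was higher in TAA than in control in 10 of 13 compared clusters and lower in 0. The shares over all genes given here are for classes and not for clusters. Counts over clusters, here and below, therefore have no background beside them and are descriptions only. Both NK/ILC clusters rested on 3 control UMIs each, with 20.8 against 195 CPM (ratio 9.41, interval 3.13 to 46.4) in the one led by Xcl1, Gzmc and Klrb1b and 9.66 against 174 CPM (ratio 18.0, interval 5.93 to 88.9) in the one led by Klra4, Gzma and Klra8. T cell clusters led by Il17a, Icos and Tnfsf8, by Ccl5, Klrc1 and Klrc2, and by Lef1, Dapl1 and Tcf7 had ratios of 5.12, 4.10 and 2.76. In the macrophage cluster led by Ms4a7, C1qb and Gpnmb the ratio was 3.41 (49.2 against 168 CPM, interval 1.85 to 7.12), smaller than over the class. That cluster was 30 of 197 control cells and 673 of 1153 TAA cells of the class. With matched cluster weights the log2 ratio in monocytes or macrophages was 1.51, against 2.74 over the class.

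Skil, at chr3:31095058-31122577 (plus strand), encodes SnoN, a nuclear co-repressor of SMAD complexes. It was called higher in TAA in 7 of 11 classes and lower in 0, with a median log2 ratio of 0.68. In neutrophils it was 199 CPM in control, 527 in TAA, 298 in TAA+C7.5 and 237 in TAA+C30. TAA again stood highest and control lowest, and the ratio of TAA to control was 2.65 (interval 2.23 to 3.17). In NK/ILC it was 154, 428, 369 and 293 CPM, with a ratio of 2.78 (interval 2.15 to 3.63). Type 2 conventional dendritic cells read 306, 628, 524 and 521 CPM (ratio 2.06), and plasmacytoid dendritic cells 171, 320, 213 and 217 CPM (ratio 1.88). T cells read 189, 343, 281 and 255 CPM (ratio 1.81), B cells 140, 230, 199 and 192 CPM (ratio 1.65), and monocytes or macrophages 270, 424, 338 and 313 CPM (ratio 1.57). In each of these classes control was lowest and TAA highest of the 4 libraries. Kupffer cells (313 and 348 CPM) and hepatocytes (28.3 and 22.5 CPM) were within 1.5-fold.

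Within clusters, Skil was higher in TAA in 12 of 19 and lower in 0, with no share over all genes to set beside it. The NK/ILC ratios were 2.26 and 3.18 and the neutrophil ratios 1.97 and 2.22, so both compared clusters of each class shared the difference. The third neutrophil cluster, led by Ngp, Ltf and Camp, had 1 control cell and was not compared. Monocytes or macrophages were mixed: Skil was 140 CPM in control and 298 in TAA in the cluster led by F13a1, Vcan and Fn1, but 516 and 476 in the one led by Ms4a7, C1qb and Gpnmb. With matched cluster weights the log2 ratio in that class was 0.14, against 0.63 over the class. In B cells it was 0.57 against 0.68, just under the 1.5-fold limit.

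Smad7, at chr18:75367529-75395935 (plus strand), encodes the inhibitory SMAD that directs the receptor to degradation. It was higher in TAA in 3 classes and lower in 1, with a median log2 ratio of 0.02 over 11 classes. With trimmed-mean scaling 5 were higher and 1 lower. Within clusters 9 of 19 were higher and 1 lower, with a median of 0.42, again without a share over all genes. T cells had the highest level in TAA, 577 CPM, against 390 in control, 622 in TAA+C7.5 and 511 in TAA+C30, and the ratio of TAA to control was 1.48 (interval 1.37 to 1.60), just under the limit. NK/ILC read 250, 422, 512 and 406 CPM, with a ratio of 1.69 (interval 1.37 to 2.09), and all 3 thioacetamide libraries were above control. Cholangiocytes read 114, 179, 219 and 173 CPM, with a ratio of 1.57 (interval 1.31 to 1.91). Type 2 conventional dendritic cells went the opposite way, at 309, 169, 182 and 223 CPM, 1.82-fold lower in TAA (interval 1.54 to 2.15). Monocytes or macrophages read 56.4, 114, 95 and 98.4 CPM, a ratio of 2.03 (interval 1.59 to 2.61), which became a log2 ratio of -0.010 with matched cluster weights. Smad7 there was 172 CPM in control and 138 in TAA in the cluster led by Ms4a7, C1qb and Gpnmb, and 26.9 and 63.0 in the one led by F13a1, Vcan and Fn1. B cells read 390, 350, 417 and 403 CPM and endothelial cells 271, 275 and 333 CPM in control, TAA and TAA+C7.5, with no call.

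**Figure D3:**
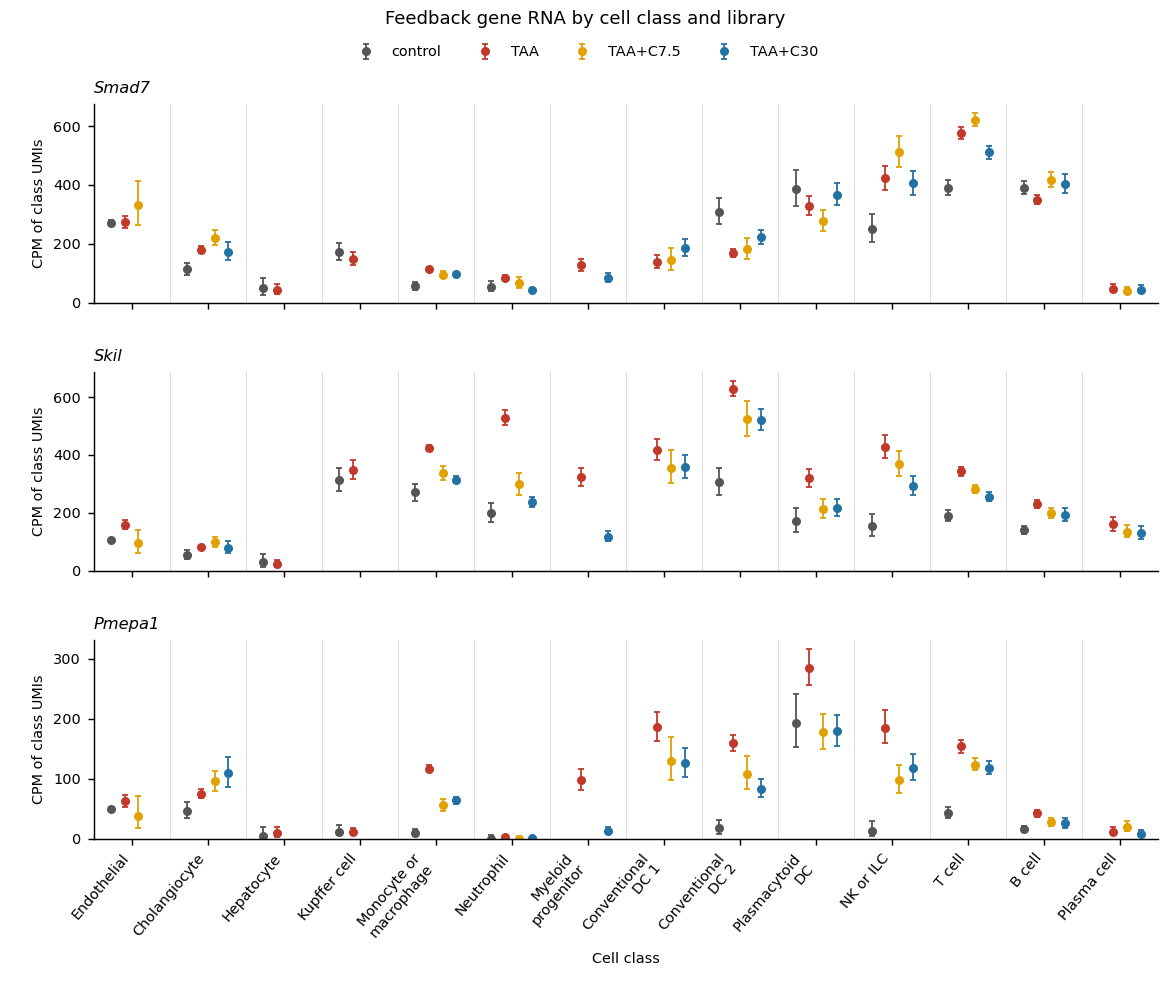
Level of Smad7, Skil and Pmepa1 (vertical axis, CPM of class UMIs; linear, each gene on its own scale) in each cell class (horizontal axis), with points for single libraries and exact Poisson 95% intervals. In NK/ILC Pmepa1 is 13.2 CPM in control, 185 in TAA, 97.5 in TAA+C7.5 and 117 in TAA+C30, and Skil follows the same low and high ends with 154 and 428 CPM.

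**Figure D4:**
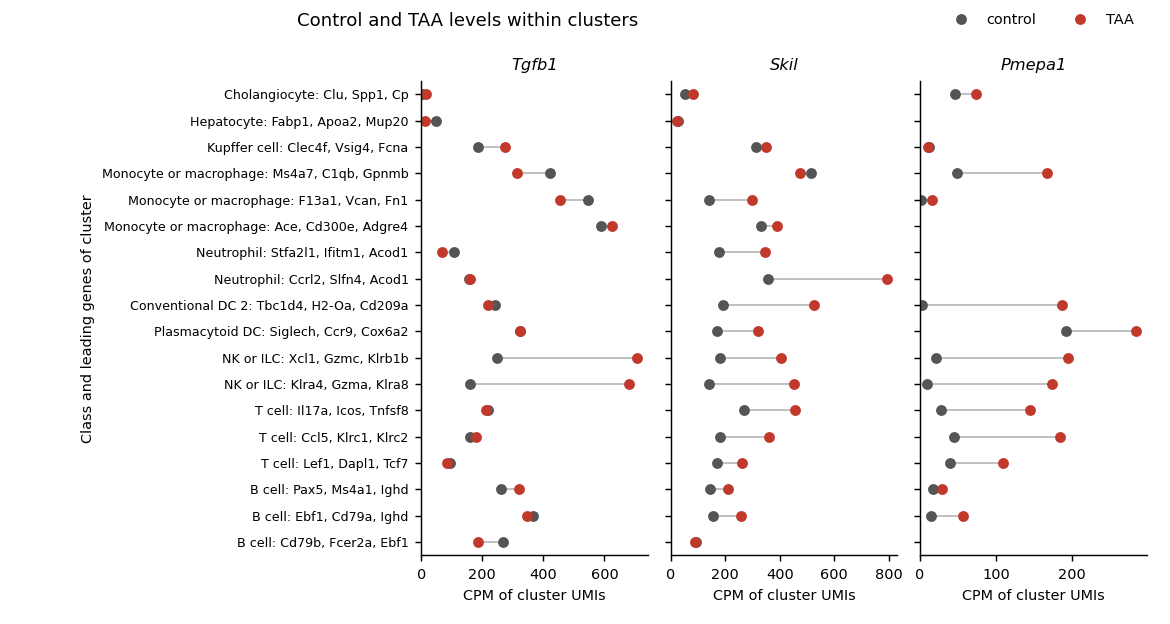
Level in control and TAA (horizontal axes, CPM of cluster UMIs, linear) of Tgfb1, Skil and Pmepa1 within clusters that held at least 20 cells in both libraries (vertical axis, class and leading genes); each point is 1 library of 1 mouse and a missing pair had under 10 UMIs in the 2 libraries together. Both NK/ILC clusters are higher in TAA for all 3 genes, while the macrophage cluster led by Ms4a7, C1qb and Gpnmb is higher for Pmepa1 (49.2 against 168 CPM) and not for Skil (516 against 476 CPM).

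Several measures of free RNA and handling differed between control and TAA in the same classes, and their part in the results was not tested. Summed hepatocyte transcripts were 380 CPM in control and 127 in TAA in NK/ILC, and 280 and 80.0 in T cells. Over all compared classes 64 of 99 pairs of hepatocyte transcript and class were lower in TAA and 4 were higher, and for erythroid genes 43 of 49 were lower. A list of immediate early and dissociation genes summed to 13074 CPM in control, 11150 in TAA, 17455 in TAA+C7.5 and 17358 in TAA+C30 in NK/ILC, and to 23773, 17805, 22259 and 14682 in neutrophils. Other classes were higher in TAA than in control: endothelial cells at 15440 against 8015 CPM, cholangiocytes at 24309 against 17732 and Kupffer cells at 18544 against 15483. Over all compared classes 53 of 209 pairs of this list were higher in TAA and 56 lower. Kupffer markers in monocytes or macrophages summed to 92.7, 885, 630 and 250 CPM, with 1, 0, 2 and 0 of 10 markers at 0.

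The celecoxib libraries were set against the TAA library, which both comparisons share. In TAA+C7.5, 2 of 85 compared pairs of the 10 genes were higher and 11 lower, with a median log2 ratio of -0.08, against 4.21% higher and 4.85% lower of 119293 pairs over all genes and a median of 0.01. In TAA+C30, 1 of 83 was higher and 17 lower, with a median of -0.24, against 2.88% higher and 5.14% lower of 119797 pairs and a median of -0.04. Of the pairs that reached 50 CPM in TAA or the celecoxib library, 9 of 53 (17.0%) were lower in TAA+C7.5 against 4.81% of all pairs, and 13 of 52 (25.0%) in TAA+C30 against 6.88%. The feedback genes, with 32 compared pairs at each dose, supplied 6 of the 11 lower pairs at 7.5 mg/kg and 8 of the 17 at 30 mg/kg. They had 0 higher at either dose. Of their pairs 18.8% and 25% were lower, against 11.5% and 28% of receptor pairs and 11.8% of ligand pairs at both doses.

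Pmepa1 was below TAA in 8 of 10 compared classes in TAA+C7.5 and in 9 of 10 in TAA+C30, and was called lower in 4 and 5 of them. Its median log2 ratios were -0.51 and -0.59, against 0.01 and -0.04 over all genes. At 7.5 mg/kg the interval left out 1 in 3 of the 4. The exception was endothelial cells (log2 ratio -0.62), whose libraries held different clusters. In NK/ILC the TAA+C7.5 library was 1.90-fold lower (interval 1.44 to 2.52) and the TAA+C30 library 1.58-fold lower (interval 1.24 to 2.01). Both doses were lower in both NK/ILC clusters, 1.67-fold and 2.09-fold at 7.5 mg/kg and 1.5-fold and 1.78-fold at 30 mg/kg. Plasmacytoid dendritic cells were 1.61-fold lower (interval 1.33 to 1.96) and 1.59-fold lower (interval 1.33 to 1.92). In type 2 conventional dendritic cells TAA+C30 was 1.92-fold below TAA (interval 1.58 to 2.33). In monocytes or macrophages the 2 doses were 2.09-fold (interval 1.75 to 2.51) and 1.83-fold lower (interval 1.66 to 2.02). There the direction depended on clusters: Pmepa1 at 30 mg/kg was 212 against 168 CPM in the cluster led by Ms4a7, C1qb and Gpnmb and 7.07 against 15.7 in the one led by F13a1, Vcan and Fn1, and matched cluster weights gave log2 ratios of -0.34 for TAA+C7.5 and 0.21 for TAA+C30.

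The largest difference at 30 mg/kg was in myeloid progenitors, cells with Elane, Prtn3 and Mpo as leading genes. Pmepa1 there was 97.6 CPM (131 UMIs, 68 cells) in TAA and 12.9 CPM (21 UMIs, 127 cells) in TAA+C30, 7.55-fold lower (interval 4.74 to 12.6). The control and TAA+C7.5 libraries, with 17 and 36 cells too few for a comparison, read 88.7 and 83.6 CPM. Skil in the same cells was 323 CPM in TAA and 117 in TAA+C30, 2.76-fold lower (interval 2.32 to 3.29). Over all genes 10.3% of those compared in this class were lower. Platelet markers in these cells summed to 40.2 CPM (54 UMIs, 1 of 8 markers at 0) in TAA and 6.78 CPM (11 UMIs, 6 at 0) in TAA+C30, and their part in these differences was not tested.

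Pmepa1 in cholangiocytes read 46.1, 74.5, 95 and 109 CPM in the 4 libraries, above TAA at both doses. Neither dose was past 1.5-fold of TAA in cholangiocytes, and the ratios of TAA, TAA+C7.5 and TAA+C30 to control were 1.61, 2.06 and 2.36. In plasma cells, which had too few control cells to compare, Pmepa1 was 11.6 CPM in TAA. It was 19.5 CPM in TAA+C7.5 (log2 ratio 0.45) and 6.80 in TAA+C30 (log2 ratio -0.36), with no call. The cluster led by Dmbt1, Chil4 and Spink4, which held cholangiocytes of the celecoxib libraries only, read 410 CPM (56 UMIs) in TAA+C7.5 and 345 CPM (31 UMIs) in TAA+C30. In the main cholangiocyte cluster Pmepa1 was 46.1, 74.5, 60.4 and 75.8 CPM, so the 2 doses lay within 1.5-fold of TAA.

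Skil was below TAA in 10 of 11 compared classes at 7.5 mg/kg and in all 11 at 30 mg/kg, mostly by less than 1.5-fold. Its median log2 ratios were -0.26 and -0.42, against 0.01 and -0.04 over all genes. At 30 mg/kg the median over all genes was itself -0.19 in neutrophils and -0.15 in plasma cells. Skil in plasma cells went from -0.29 to -0.055 with trimmed-mean scaling. Skil was called lower in neutrophils at both doses, 1.77-fold (interval 1.54 to 2.04) and 2.22-fold (interval 2.04 to 2.43), and in endothelial cells at 7.5 mg/kg (1.67-fold, interval 1.10 to 2.67), where the 2 libraries held different clusters. Neutrophil clusters differed: at 30 mg/kg Skil was 787 against 792 CPM in the cluster led by Ccrl2, Slfn4 and Acod1, 264 against 347 in the one led by Stfa2l1, Ifitm1 and Acod1, and 135 against 243 in the one led by Ngp, Ltf and Camp. The first of these held 566 of 1147 neutrophils in TAA and 225 of 1118 in TAA+C30, and the last 46 and 398. Matched cluster weights gave log2 ratios of -0.38 at 7.5 mg/kg and -0.19 at 30 mg/kg. Tgfb1, Tgfbr1, Tgfbr2 and Smad7 were also called lower in TAA+C30 neutrophils, where 15% of all compared genes were lower. With matched cluster weights the log2 ratios were -0.57 for Tgfb1, -0.35 for Tgfbr1, -0.17 for Tgfbr2 and 0.11 for Smad7, all under the 1.5-fold limit. The trimmed-mean factor of that class was 0.42 on the log2 scale, before the 10 CPM are added, and gave -0.72 for Skil, -1.03 for Tgfbr1, -0.65 for Tgfb1, -0.42 for Tgfbr2 and -0.48 for Smad7, the last 2 under the 1.5-fold limit.

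Smad7 was called in 0 classes at 7.5 mg/kg and lower in 1, neutrophils, at 30 mg/kg (42.4 against 83.1 CPM, 1.96-fold, interval 1.58 to 2.44). Its median log2 ratios were 0.10 and -0.06, and the latter was 0.015 with trimmed-mean scaling. In T cells the ratios to TAA were 1.08 and 0.885.

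Against control, both celecoxib libraries were higher in several of the classes in which TAA was higher. Pmepa1 in NK/ILC was 7.39-fold control in TAA+C7.5 and 8.89-fold in TAA+C30, in monocytes or macrophages 6.27-fold and 7.15-fold, in type 2 conventional dendritic cells 6.41-fold and 4.99-fold, and in T cells 2.89-fold and 2.76-fold. Skil in NK/ILC was 2.40-fold and 1.90-fold control. These ratios share the control library with that of TAA, and rest on the same few control UMIs.

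**Figure D5:**
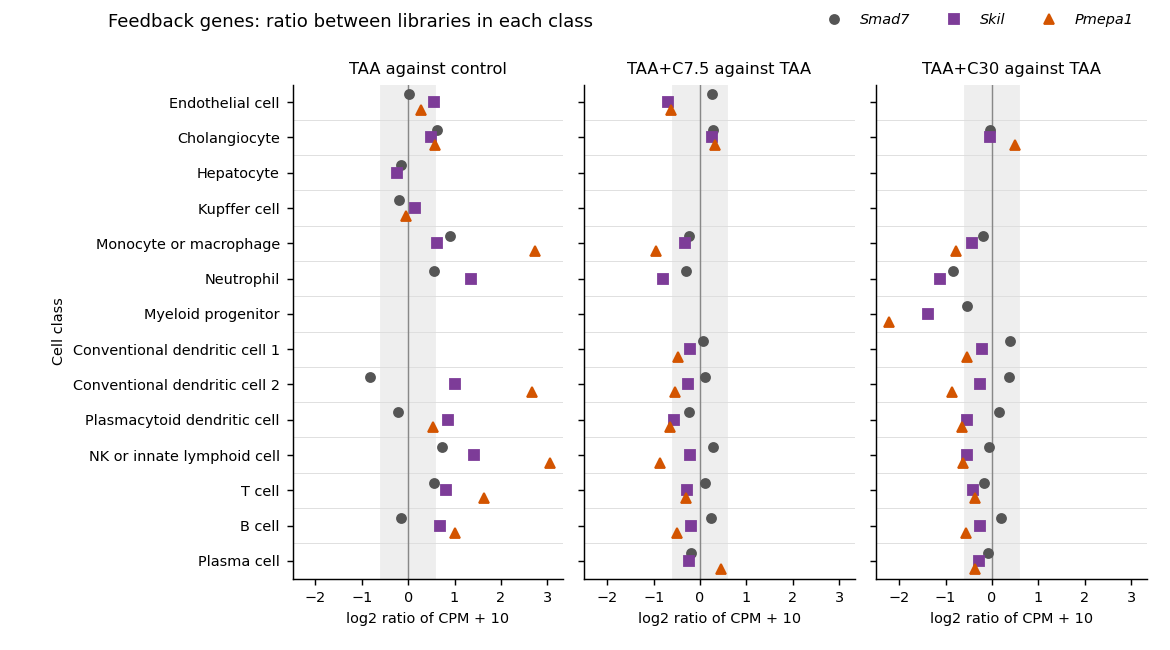
Log2 ratio of CPM + 10 (horizontal axes) of Smad7, Skil and Pmepa1 in each cell class (vertical axis) for TAA against control and for each celecoxib library against TAA. Each point is a ratio of 2 libraries of 1 mouse each, and the grey band marks ratios under 1.5-fold. Pmepa1 reaches 3.07 in NK/ILC for TAA against control and -2.23 in myeloid progenitors for TAA+C30 against TAA, while Smad7 lies on both sides of 0.

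Lists of further pathway genes, in 4 groups, put these values in context. Known transcription targets of the pathway were higher in TAA than in control in 48 of 124 compared pairs of gene and class and lower in 12, with a median log2 ratio of 0.35 and 18 of 22 genes compared. Over all genes, 7.88% of pairs were higher and 9.64% lower in this comparison. In NK/ILC the highest ratios were those of Cdkn1a, a cell cycle inhibitor (13.2 against 104 CPM, ratio 7.86, interval 3.49 to 21.9), and Rgs16, a regulator of G protein signalling (11.0 against 61.9 CPM, ratio 5.64). The lowest were those of Itga1 (130 against 83.3 CPM) and Id2 (1369 against 982 CPM). In T cells Rgs16 and Cdkn1a again led, with ratios of 4.68 and 2.91. In monocytes or macrophages Id1, which encodes an inhibitor of DNA binding by helix-loop-helix factors, was 130 CPM in control and 297 in TAA (ratio 2.29, interval 1.95 to 2.69). Fn1, which encodes fibronectin and is also among the markers used to name this class, was 918 and 265 CPM (ratio 0.289). The cluster led by F13a1, Vcan and Fn1 held 75 of 197, 336 of 1153, 236 of 507 and 958 of 1412 cells of the class in the 4 libraries. List values of this class, here and below, are for the whole class, without matched cluster weights. In cholangiocytes Id3, a target shared with BMP signalling, was 208 CPM in control and 644 in TAA (ratio 3.1).

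The other 3 lists had fewer higher pairs, or as many lower ones. Their counts stand beside the same 7.88% higher and 9.64% lower over all genes. Genes of ligand latency and activation were higher in 24 and lower in 21 of 119 pairs. In cholangiocytes Thbs1, which encodes an activator of latent TGF-beta, was 52.5 CPM in control and 177 in TAA (ratio 3.38), and Itgb8, whose integrin also releases it, was 204 and 69.3 CPM (ratio 0.339). In monocytes or macrophages Mmp14, a membrane protease, was 34.7 and 133 CPM (ratio 3.84) and Itgb5, an integrin subunit, was 104 and 331 CPM (ratio 3.18). In endothelial cells Fbn1, which encodes the matrix protein fibrillin-1, was 6.24 and 41.0 CPM, and Ltbp4, which encodes a latent TGF-beta binding protein, was 549 and 133 CPM (ratio 0.243). Other receptors, co-receptors and SMADs were higher in 7 and lower in 36 of 134 pairs, with a median of -0.25, and other inhibitors and turnover genes higher in 16 and lower in 17 of 146. In monocytes or macrophages the receptor adaptor Dab2 was 54.0 and 142 CPM (ratio 2.62), and Zfyve9, which encodes the SMAD anchor SARA, was 129 and 35.9 CPM (ratio 0.278). Ldlrad4, a relative of Pmepa1 that also inhibits SMAD activation, was 13.2 and 39.6 CPM in NK/ILC (ratio 3.0, interval 1.26 to 8.68).

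Against TAA the lists held fewer calls. Over all genes, 4.21% of pairs were higher and 4.85% lower in TAA+C7.5, and 2.88% and 5.14% in TAA+C30. The transcription targets were higher in 12 and lower in 16 of 121 pairs in TAA+C7.5 and higher in 12 and lower in 13 of 122 in TAA+C30, with medians of -0.04 and -0.01. Latency genes were higher in 7 and lower in 17 of 106 pairs in TAA+C7.5, and higher in 6 and lower in 10 of 106 in TAA+C30. Other receptors and SMADs were higher in 2 and lower in 8 of 122, then higher in 2 and lower in 13 of 128. Other inhibitors were higher in 5 and lower in 9 of 140, then higher in 3 and lower in 10 of 134. Named genes with large ratios in monocytes or macrophages were Mmp14, at 54.4 CPM in TAA+C7.5 and 61.5 in TAA+C30 against 133 in TAA, Dab2, at 60.2 and 53.1 against 142, and Fn1, which was higher at 573 and 748 against 265 CPM. These too are whole-class values, and the cluster makeup of the class differed between these libraries. In cholangiocytes Itgav, the alpha subunit of integrins that activate latent TGF-beta, was 74.7 and 76.1 against 166 CPM.

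The genes whose level varied most like that of each feedback gene were taken over 47 combinations of library and class, among 6958 genes. For Smad7 they were Vps13a, Srrm2 and Tra2b, with Pearson r of 0.90, 0.89 and 0.88. For Skil they were Tmsb4x, Hcls1 and Aim2 (0.89, 0.84 and 0.84), and for Pmepa1 Slc25a4, H2-T22 and Hnrnpa1 (0.78, 0.78 and 0.77). These points share libraries and differ in depth and in the broad type of cell, so r is a description only.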

How the data were processed

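Single-cell RNA was measured in nonparenchymal liver cells of 4 mice, 1 per group. The deposited tables hold raw UMI counts per gene and barcode, made by the authors with Cell Ranger 3.1.0 on mm10, per the submitters' processing notes. The annotation used and the rule for calling cells are not given in the sources used here. Gene IDs matched GENCODE M21 on GRCm38, from which coordinates were taken.

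Cells with at least 200 genes and at most 20% mitochondrial UMIs were kept, and doublets called by Scrublet (5% expected rate; 122, 52, 172 and 116 barcodes in the order used throughout, from control to TAA+C30) were removed. Counts were clustered with scanpy 1.11.5 (2000 variable genes without the 10 genes and the pathway lists, 30 components, 20 neighbours, resolution 1, then within mixed clusters 15 neighbours and resolution 0.5). This gave 47 clusters. A cluster was named from 3 or more fixed markers, and 9 clusters stayed unnamed, with 46, 292, 63 and 148 cells. Thresholds for names were set with earlier results known, as were the members and the gene lists.

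UMIs were summed per library and class. Level intervals are exact Poisson, ratio intervals conditional exact binomial, shares Clopper-Pearson. UMI totals in retained cells were 24675999, 47347437, 17083203 and 26626414. All 10 genes are given by class. From each pathway list up to 2 genes per direction are named, those with the largest log2 ratio among genes with at least 30 UMIs in the class and comparison; 1 such gene is not reported here. Genes alike to a feedback gene are the 3 with the highest correlation among genes reaching 50 CPM in 3 or more combinations. The procedure was tested on simulated data. Alternatives covered scaling (edgeR 4.0.16 trimmed means in R 4.3.3), the added CPM, filters, doublets, class names, resolution, weights of cells and clusters, and shared barcodes.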

Additional observations from a re-analysis of the deposited data

Results flagged for a closer look

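In the comparison of TAA with control, 2 genes had calls in opposite directions in different cell classes. The difference between classes was not tested, since each class has 1 library per condition. Smad7 had log2 ratios of 0.61 in cholangiocytes, 0.90 in monocytes or macrophages and 0.73 in NK/ILC, all higher in TAA, and of -0.83 in type 2 conventional dendritic cells. Tgfb1 had log2 ratios of 0.89 in cholangiocytes and 1.82 in NK/ILC, and of -1.34 in hepatocytes. The Tgfb1 values in cholangiocytes and hepatocytes rest on 4 and 9 UMIs in the lower library.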

How the results depend on the processing

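No paired analysis was possible because each group holds 1 mouse. The 60 called log2 ratios whose interval leaves out 1 kept their direction in 54 cases under every alternative, and 17 stayed past 1.5-fold in every one that gave a value. Trimmed-mean scaling kept 54 of 60 past the fold. Its factors, before the 10 CPM are added, were over 0.1 (log2) in size between TAA and control (NK/ILC 0.17, type 2 conventional dendritic cells 0.16, monocytes or macrophages and cholangiocytes 0.14 each, T cells 0.13, B cells 0.12, hepatocytes -0.12) and between TAA+C30 and TAA (neutrophils 0.42, plasma cells 0.25). Over classes the counts above and below 0 for Skil and Pmepa1 were the same with both scalings in all 3 comparisons. It brought under the fold Smad3 in monocytes or macrophages between TAA and control and, between TAA+C30 and TAA, Tgfbr1 in monocytes or macrophages and plasma cells, Pmepa1 in NK/ILC, and Tgfbr2 and Smad7 in neutrophils. Matched cluster weights kept 38 of 59 past the fold and turned 6: Tgfb3 (-0.31), Tgfbr1 (-0.082) and Smad7 (-0.010) in monocytes or macrophages between TAA and control, and Tgfbr1 (0.017) and Pmepa1 (0.21) in monocytes or macrophages and Smad7 in neutrophils (0.11) between TAA+C30 and TAA. The cause was not tested. Counts of called pairs moved by over 1.5 times as follows. For TAA against control, the 25 higher pairs became 13 with 50 CPM added and 10 at 2-fold. The 7 lower became 14 with 1 CPM added, 3 with 50 CPM added, 4 with at least 50 UMIs, 4 with a mitochondrial share of at most 10%, 11 with doublets kept, 18 with classes from marker scores, 4 at 2-fold and 2 with at least 50 CPM in the higher library (chosen after seeing the data, here and below). For TAA+C7.5 against TAA, the 2 higher became 8 with 1 CPM added, 0 with 50 CPM added, 1 with at least 50 UMIs, 4 each with marker scores, resolution 2 and equal cell weights, 1 with at least 50 CPM and 0 at 2-fold. The 11 lower became 5 with 50 CPM added, 6 with matched cluster weights and 0 at 2-fold. For TAA+C30 against TAA, the 1 higher became 3 with 1 CPM added, 2 with marker scores, 7 with equal cell weights, 3 with matched cluster weights, and 0 each with 50 CPM added, at least 50 UMIs, no mitochondrial filter, doublets kept, resolution 2, at least 50 CPM, 2-fold and an interval that leaves out 1. The 17 lower became 6 with 50 CPM added, 10 with matched cluster weights and 5 at 2-fold. Over the alternatives the TAA to control log2 ratio of Pmepa1 ranged from 1.89 to 3.71 in NK/ILC, from 1.5 to 3.57 in monocytes or macrophages and from 1.13 to 1.84 in T cells, and that of Tgfb1 in NK/ILC from 1.53 to 1.99. Low control counts limit the Pmepa1 ratios.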

Other observations

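Among cells left without a class name, the cluster led by Dcn, Ednrb and Cnmd held 74 TAA cells, in which Tgfb1 was at 415 CPM (322 UMIs), Tgfbr2 at 318 CPM (247 UMIs), Tgfbr3 at 290 CPM (225 UMIs) and Pmepa1 at 60.6 CPM (47 UMIs). It held 10 control cells, so these levels were not compared between libraries. In a cluster led by Igfbp5, Dcn and Ccl21a, Tgfb2 was at 110 CPM (16 UMIs) in 10 TAA+C30 cells and Tgfbr3 at 158 CPM (23 UMIs). In 6 TAA+C7.5 cells of that cluster Pmepa1 was at 504 CPM (20 UMIs) and Tgfbr3 at 605 CPM (24 UMIs). The 13 endothelial cells of TAA+C30 were too few for a comparison and read 149 CPM for Tgfbr3 (17 UMIs) and 210 CPM for Tgfbr2 (24 UMIs).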
